A study of Mus musculus with 74 samples.

Results

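The major urinary protein genes of the mouse liver were taken as 6 members of the family, Mup1, Mup2, Mup3, Mup7, Mup20 and Mup21. Their rows were found by name: rows of the RNA-seq table that carry one of these symbols, which gave 6 of 14583 genes, and rows of each ChIP-seq peak table whose nearest annotated start site belongs to one of them, which gave 393 peaks. All 11 ChIP-seq tables held member peaks, from 15 to 51 a table among 27842 to 115042 peaks. Mup20 had 180 of these peaks, Mup7 64, Mup3 54, Mup21 46, Mup1 36 and Mup2 13.

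The libraries came from livers of C57BL/6 mice of 8 to 12 weeks on normal chow, and each knockout was compared with the control labelled WT of its own line. GPS2_LKO mice lacked the corepressor subunit GPS2 in hepatocytes (Gps2 flox/flox with the Cre recombinase driven by the albumin promoter, Alb-Cre), and their WT controls were Gps2 flox/flox mice of the same breedings, so that both groups carried the floxed allele. NCOR_LKO and SMRT_LKO mice were liver-specific knockouts of the corepressors NCOR and SMRT, and PPARa_KO mice lacked the nuclear receptor PPARα in the whole body. RNA-seq was available for the GPS2 line alone, with 4 WT and 4 LKO libraries. ChIP-seq measured H3K27ac and H3K4me3 in the GPS2 line (2 against 2 libraries each) and H3K27ac in the NCOR and SMRT lines (3 against 3 each). GPS2 was measured in the NCOR and PPARa lines, NCOR in the GPS2 and PPARa lines and PPARα in the GPS2 and NCOR lines (3 against 3 each), with PPARα also in the PPARa line (2 against 2). GPS2 and RNA polymerase II (PolII) in the GPS2 line had 1 library per genotype, so those comparisons carry no test. Each ChIP library pooled several immunoprecipitations. Nothing in the labels says which libraries came from separate animals, so p-values describe the spread between libraries.

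Major urinary proteins are small secreted lipocalins that carry volatile pheromones in a hydrophobic pocket. The mouse liver makes them in large amounts, adult males more than females, and the kidney passes them into the urine. Pulses of growth hormone, acting through its receptor and STAT5B, together with androgens, glucocorticoids and thyroid hormone, are known to maintain their transcription. The genes lie side by side in a cluster on chromosome 4, with nearly identical copies in its centre and more divergent copies at its edges. GPS2, NCOR, SMRT and the histone deacetylase HDAC3 form a corepressor complex that removes acetyl groups from histones, and PPARα, a fatty acid sensor, is one of the receptors it binds.

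RNA-seq libraries held 13194385 to 20086127 counts and ChIP-seq libraries 7.90 to 46.1 times 1000000 tags. Gps2 RNA was 16.0 ± 0.719 TMM-scaled counts per 1000000 (CPM) in WT and 11.2 ± 1.92 in LKO (SD, n = 4 each), a log2 fold change of -0.53 (SE 0.112, adjusted p = 0.0021 with edgeR's quasi-likelihood test), and no LKO library reached the lowest WT library. In the GPS2 ChIP of the NCOR line, WT replicate 3 held 3.07% of its tags in peaks, against 8.23% and 7.82% in the other WT libraries and 2.45% to 3.15% in LKO. In the PPARα ChIP of the NCOR line, WT replicate 3 held 8.96%, against 19.3% and 18.6%. The sex-linked signal set the SMRT line apart. All 6 of its H3K27ac libraries had 0 tags at the 5 peaks of Ddx3y, Uty and Eif2s3y on the Y chromosome, which allows up to 0.876 tags per 10000000 in the shallowest, and 249 to 289 tags per 10000000 at the peak of Xist, the RNA that silences an X chromosome in females. The 6 NCOR-line libraries of the same table had 306 to 371 at the Y-linked peaks and 2.93 to 4.92 at Xist, and in the GPS2 line the Y-linked H3K27ac peaks summed to 428 to 471. The study's methods describe the mice as male. The members are expressed at different levels in the sexes.

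Several copies could not be told apart by short reads. In the annotated transcripts of the mm9 assembly, every stretch of 50 bases in Mup2 recurs in another Mup transcript (100%), as do 94.8% of those in Mup1 and 94.3% in Mup7. The shares were 19.1% in Mup21, 15.9% in Mup3 and 4.66% in Mup20. Their coding sequences follow the same division. Mup1 and Mup2 shared 99.4% of aligned bases, Mup1 and Mup7 98.9%, Mup2 and Mup7 98.7%, and Mup3 and Mup21 94.8%, while the other pairs shared 82.9% to 90.8%. The Mup2 row of the RNA table spans chr4:60135913-61439702 (GRCm38, minus strand) in 2260 exon bases, and 37.5% of these lie in exons that the table also gives to Mup11, Mup14 or Mup15. Values of Mup1, Mup2 and Mup7 are therefore values of a group of copies whose reads the authors' counting could split or drop, and those of Mup3, Mup20 and Mup21 rest mostly on their own reads. The same holds for the peaks, where the median share of repeated 50-base stretches was 63.5% in Mup1, 45.9% in Mup7 and 39.0% in Mup2 peaks, against 4.68% in Mup21, 2.17% in Mup3 and 2.02% in Mup20. None of the 13 peaks listed for Mup2 had Mup2 as its nearest coding Mup gene in the mm9 annotation, whereas all 380 of the others matched their listed gene.

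The promoters of these genes are shown because polymerase, histone and PPARα tags were measured at them. RefSeq entries were found for 4 members. The 250 bases before each start site are given 5′ to 3′ on the minus strand of GRCm38.p6, and capitals mark the letters ATCAAT.
Mup2, chr4:60139857-60140106: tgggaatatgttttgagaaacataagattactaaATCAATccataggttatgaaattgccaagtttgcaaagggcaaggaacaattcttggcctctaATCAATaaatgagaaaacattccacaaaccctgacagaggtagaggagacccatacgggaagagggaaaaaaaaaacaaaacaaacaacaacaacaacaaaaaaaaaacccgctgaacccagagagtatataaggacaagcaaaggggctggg
Mup7, chr4:60070476-60070725: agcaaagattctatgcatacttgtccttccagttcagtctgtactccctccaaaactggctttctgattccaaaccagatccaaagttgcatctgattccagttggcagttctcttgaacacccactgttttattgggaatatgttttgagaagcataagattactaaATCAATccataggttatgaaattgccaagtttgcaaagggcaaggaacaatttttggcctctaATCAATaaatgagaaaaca
Mup3, chr4:62087318-62087567: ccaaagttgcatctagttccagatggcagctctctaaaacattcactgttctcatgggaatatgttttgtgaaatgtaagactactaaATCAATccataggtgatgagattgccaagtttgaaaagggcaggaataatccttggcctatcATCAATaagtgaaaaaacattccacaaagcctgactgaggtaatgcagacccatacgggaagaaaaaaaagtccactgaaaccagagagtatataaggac
Mup21, chr4:62150842-62151091: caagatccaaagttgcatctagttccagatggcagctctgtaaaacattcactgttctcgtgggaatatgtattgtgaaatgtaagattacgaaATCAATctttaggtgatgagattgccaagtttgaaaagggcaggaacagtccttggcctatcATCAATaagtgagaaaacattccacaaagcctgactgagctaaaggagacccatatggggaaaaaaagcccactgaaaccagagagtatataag
ATCAAT, read on the other strand as ATTGAT, is the core that the liver factor HNF6 (gene Onecut1) is known to bind. It was searched for after the sequences had been seen. It stood in all 4 promoters, in a pair at -216 and -153 from the start site in Mup2, -162 and -100 in Mup3, -156 and -94 in Mup21 and -82 and -19 in Mup7, and in 7.54% of 32851 RefSeq promoter windows of 300 bases (250 before to 50 after the start). On either strand, the STAT motif TTCNNNGAA (8.30% of all windows), the C/EBP motif TTGCNNAA (10.8%), the nuclear receptor motif DR1 (a direct repeat of AGGTCA with 1 base between, 0.0396%), a single AGGTCA (16.3%) and TATAAA (13.6%) were found in 0 of the 4 windows. Only these exact letters were searched for, and the similar letters TATATAAG stand in the Mup2, Mup3 and Mup21 sequences shown. The windows of Mup3 and Mup21 were 93.3% identical over 297 aligned bases and those of Mup2 and Mup7 97.6% over 166.

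In Gps2 LKO livers the RNA of 5 of the 6 members was lower, by very different amounts. Mup1 and Mup2 passed the filter on low counts through their WT libraries alone. Their part in this count is therefore not evidence of a direction. Mup21, Mup7, Mup2 and Mup1 fell to between 0.568% and 21.0% of WT, Mup3 to 78.9%, and Mup20, which encodes the male pheromone darcin, did not pass the test. Among all 12220 genes tested, 21.4% were lower and 23.4% higher at an adjusted p below 0.05, with a median log2 fold change of 0.03 against -2.59 for the members. The members' total fell from between 1.42% and 1.56% of all counts in WT to between 0.894% and 1.18% in LKO. No LKO library reached the lowest WT library in 5 of 6 members, as in 19.1% of all genes tested.

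Mup21 lies at chr4:62147832-62150841 (GRCm38, minus strand, as do all members). Its WT libraries stood at 336, 321, 355 and 338 CPM and its LKO libraries at 18.5, 13.0, 17.6 and 17.4. All 4 LKO libraries were thus far below all 4 WT libraries, and the log2 fold change was -4.35 (SE 0.0995, adjusted p = 6.76e-13). Mup7, at chr4:60067510-60070475, stood at 365, 397, 418 and 398 CPM in WT and at 54.5, 47.8, 57.4 and 50.9 in LKO. The groups were again far apart, with a log2 fold change of -2.91 (SE 0.073, adjusted p = 1.97e-12). Ranked by fold change from the lowest, Mup21 was at place 10 and Mup7 at place 18 of the 12220 genes.

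Mup1 and Mup2 were counted rarely. Mup1 (chr4:60498013-60501960), a carrier of lipophilic ligands that has also been studied as a circulating metabolic signal, had 82, 122, 128 and 111 counts in the WT libraries and 0, 3, 0 and 0 in the LKO libraries. The 443 WT counts against 3 LKO counts gave a ratio of 138-fold after scaling, with a 95% counting interval of 46.8 to 670, which covers counting error alone (edgeR, adjusted p = 1.56e-08). Mup2 had 39, 37, 41 and 25 counts in WT and 4, 7, 8 and 8 in LKO, or 2.15 ± 0.384 against 0.452 ± 0.160 CPM (SD, n = 4 each). Its log2 fold change was -2.27 (SE 0.27, adjusted p = 1.92e-05), the groups did not overlap, and at 100% shared sequence this row shows the few reads that the counting left to it.

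Mup3 and Mup20 made up 94.5% to 94.8% of the members' counts in WT and 99.3% to 99.5% in LKO. Mup3 (chr4:62083476-62087312) stood at 8986, 8742, 9593 and 9205 CPM in WT and at 8070, 5812, 6721 and 8202 in LKO. Every LKO library was below every WT library, but the LKO libraries spread over a wide range, and the log2 fold change was -0.34 (SE 0.093, adjusted p = 0.0092). Mup20 (chr4:62050235-62054117), the neighbour of Mup3, stood at 3894, 3796, 4311 and 3987 CPM in WT and at 4361, 3258, 4436 and 4508 in LKO. The LKO libraries lay on both sides of the WT libraries. The log2 difference was 0.05 with a 95% interval of -0.13 to 0.23 (adjusted p = 0.669). In LKO replicate 2 Mup20 had the lowest value of all 8 libraries, and without this library Mup20 was called higher, at a log2 fold change of 0.13 (adjusted p = 0.0153).

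**Figure D1:**
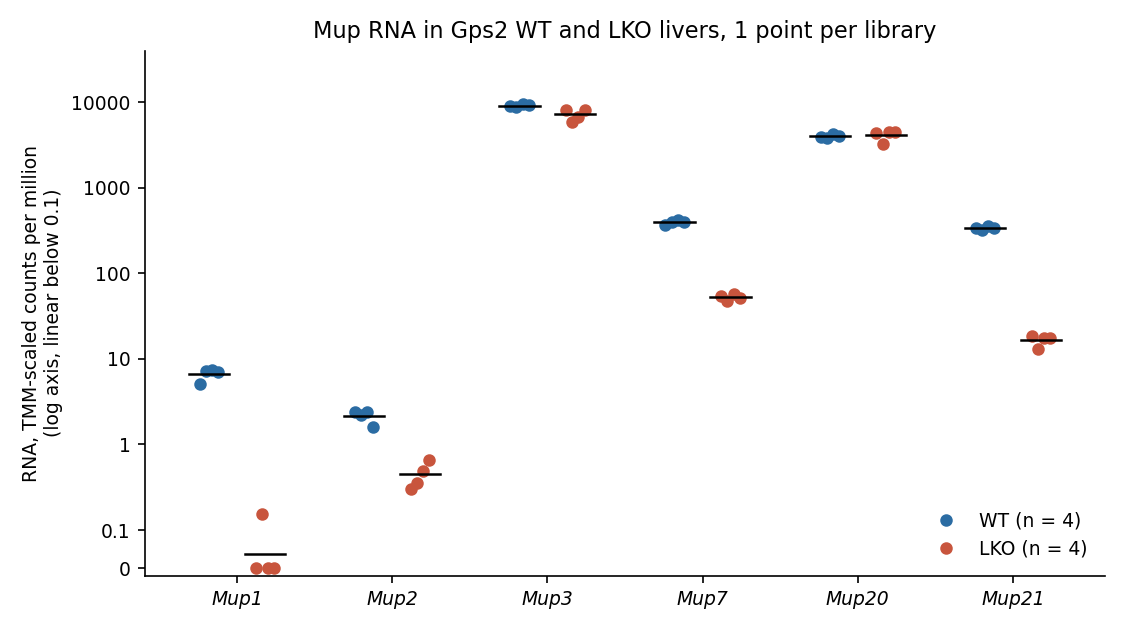
RNA of the 6 members in each RNA-seq library (points, CPM on a log scale) with group means, for 4 WT and 4 Gps2 LKO livers. WT and LKO points are farthest apart for Mup1, Mup21 (338 against 16.6 CPM on average) and Mup7 (394 against 52.7), close for Mup3 (9131 against 7201) and mixed for Mup20 (3997 against 4141).

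Per kilobase of exon the order in WT was Mup3 (10057 CPM per kb), Mup20 (4511), Mup7 (697), Mup21 (447), Mup1 (6.16) and Mup2 (0.951), and no neighbours in this order overlapped between libraries. In LKO the order was Mup3 (7931), Mup20 (4674), Mup7 (93.0), Mup21 (22.0), Mup2 (0.200) and Mup1 (0.0350), where only the last neighbours overlapped. The table holds 14 further Mup rows. All 12 of these that could be tested were lower in LKO, at a median log2 fold change of -3.69, and the other 2, Mup8 and Mup15, were below the filter on low counts. Several of the 12, among them Mup13, Mup18 and Mup19, passed this filter through their WT libraries alone, so the count is not evidence of a direction. Mup17 fell from 1057 to 12.9 CPM (log2 -6.38) and Mup11 from 1806 to 51.5 (log2 -5.14). Of the 12, 9 are 98.3% to 99.6% identical to Mup1, Mup2 and Mup7 in coding sequence and do not give an independent count for each gene. The others, Mup4 (log2 -1.70), Mup5 (log2 -1.81) and Mup6 (log2 -1.59), are 88.2% to 90.4% identical to them. All 20 rows together made up 1.75% to 1.87% of the counts in WT and 0.904% to 1.19% in LKO.

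Other genes near the cluster were called in both directions. Of 25 rows that are no Mup genes within 1000000 bases of the outermost member, 22 were tested, and 6 were higher, 5 lower and 11 without a call, beside 23.4% higher and 21.4% lower of all genes tested, at a median log2 fold change of -0.05. One of the lower rows, the predicted gene Gm2083 inside the cluster, fell from 972 to 12.7 CPM (log2 -6.27). The plot of the Mup rows in chromosomal order shows Mup20 and Mup3 side by side near 0, between rows that fell.

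**Figure D2:**
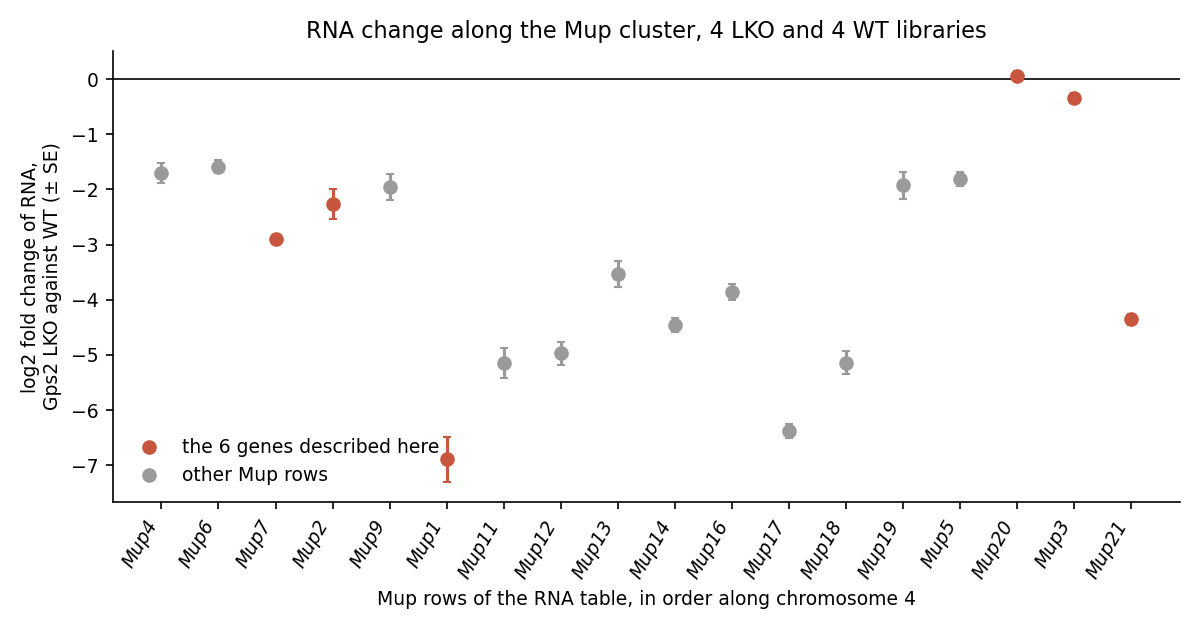
Log2 fold change of RNA (vertical axis, Gps2 LKO against WT, bars SE, 4 libraries each) for the 18 Mup rows tested, in their order along chromosome 4, with the 6 members in red and the other rows in grey. Mup20 (0.05) and Mup3 (-0.34) lie near 0, and the other 16 rows lie below -1.

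The summed members varied from library to library, within groups, most like Alb (r = 0.989), Eif1ax (0.988), Amy1 (0.986), Uqcrb (0.986) and S100a13 (0.984) among 8567 genes. These are descriptions over 8 libraries that share their total counts. LKO replicate 2 stood apart, with summed members at 9131 CPM against 11232 to 12780 in the other LKO libraries. How far the correlations of this paragraph rest on that library was not tested. Between members, Mup20 and Mup21 varied together (r = 0.965), Mup3 and Mup21 less so (0.859), and Mup3 and Mup20 at 0.841.

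Genes of the growth hormone axis were called in both directions. Of 23 genes on this list, 9 were lower, 6 higher and 8 without a call, beside 21.4% lower and 23.4% higher of all genes tested, at a median log2 fold change of -0.16. The receptor Ghr fell from 786 to 552 CPM (log2 -0.51, adjusted p = 2.71e-05), and its signal transducers Stat5b (log2 -0.34, adjusted p = 0.0021) and Stat5a (log2 -0.61) fell with it. The STAT5 targets Socs2 (log2 1.19) and Cish (log2 1.16), which damp the signal of the receptor, rose, as did Igfbp3 (log2 0.78), while Igf1 stood at 872 against 812 CPM without a call. Bcl6, a repressor that is higher in male liver and known to keep female-type genes low, fell from 86.7 to 24.0 CPM (log2 -1.85, adjusted p = 1.14e-09). Cux2, a female-specific liver factor that is known to lower male-biased genes, rose from 0.340 to 15.2 CPM (log2 5.49, adjusted p = 3.46e-09). In WT Cux2 was near the floor, and it passed the filter on low counts through its LKO libraries. Its call, 1 of the 6 higher, is therefore not evidence of a direction. Hnf4a, Zhx2, Thrb and Foxa1 were lower by 0.33 to 0.46 on the log2 scale, Cebpa and Foxa2 were higher, and Jak2, Igfals, Onecut1, Cebpb, Nr3c1 and Esr1 were without a call. Of these, Zhx2 and the thyroid hormone receptor Thrb are known regulators of Mup transcription, and Onecut1, the gene of HNF6, stood at 16.2 against 16.8 CPM.

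Most of the other listed genes that are higher in male than in female liver fell as well, at a median log2 fold change of -0.98 over the list. By edgeR's test 16 of 18 were lower and 0 higher (0 at an unadjusted p below 0.05 and 0 by DESeq2), beside 21.4% lower and 23.4% higher of all genes tested. This list was chosen with earlier results of these data known, so the count is not evidence of a direction. The lower genes included the bile acid hydroxylase Cyp7b1, from 502 to 80.6 CPM (log2 -2.64), the fatty acid elongase Elovl3 (log2 -2.68), Selenbp2 (log2 -2.71) and Serpina1e, from 13225 to 7567 CPM (log2 -0.81). Cyp2f2 (log2 -0.08) and Cspg5 (log2 0.01) were without a call. Of 22 female-biased genes, 21 were in the table and 14 passed the filter on low counts. All 14 were called higher, but several passed the filter through their LKO libraries alone, so the count is not evidence of a direction. Cyp2b9 rose from 0.122 to 55.2 CPM, Cyp2a4 from 3.29 to 1198 and Hao2 from 0.195 to 19.9. Cyp4a14, Cyp4a10 and Acot3 on this list are also known PPARα targets. The Y-linked genes Ddx3y and Eif2s3y stood at 76.8 to 86.5 and 58.7 to 64.3 CPM in WT and at 76.2 to 95.5 and 56.4 to 71.2 in LKO, without a call. Kdm5d (log2 -0.42) and Uty (log2 -0.26) were lower. Xist was at 0.0594 to 0.255 CPM in WT and at 0 to 1.12 in LKO.

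**Figure D3:**
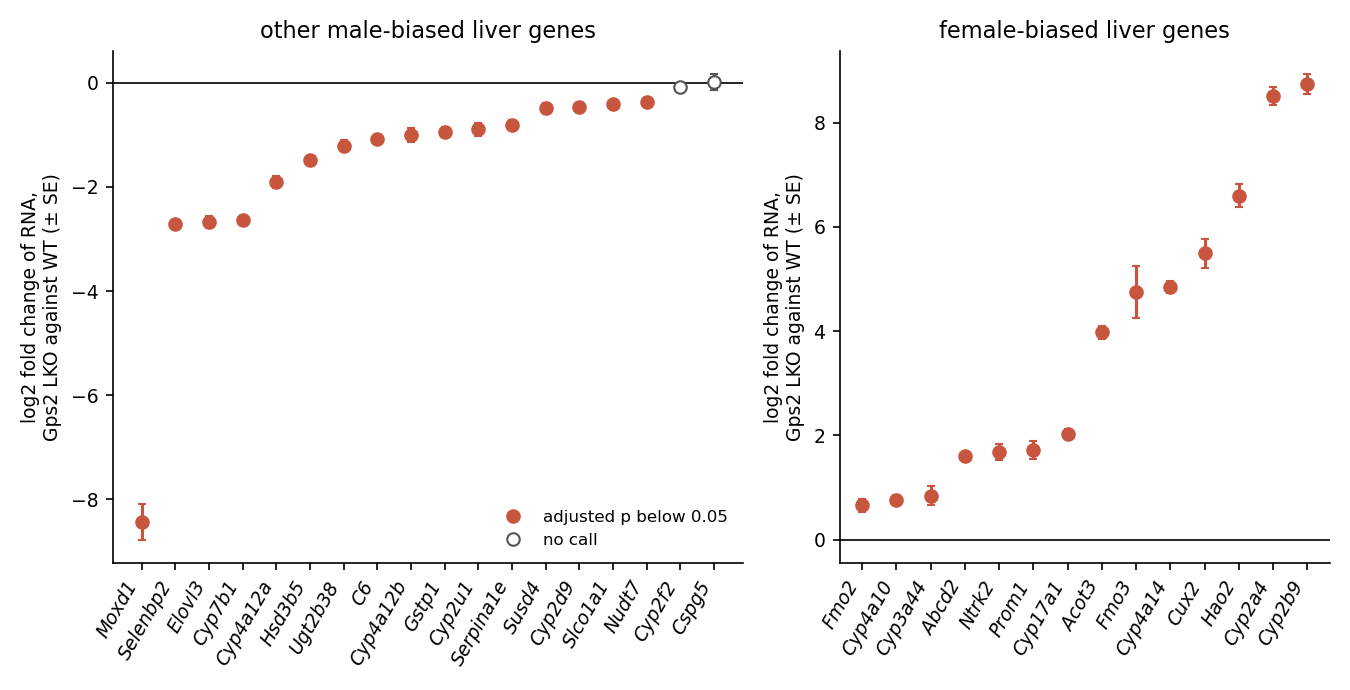
Log2 fold change of RNA (vertical axes, Gps2 LKO against WT, bars SE, 4 libraries each) for the tested genes of the list of other male-biased genes (left) and of female-biased genes (right), sorted by value, with called genes filled. The male-biased genes run from Moxd1 (-8.43) to Cspg5 (0.01) with 16 of 18 called lower, and all 14 female-biased genes that passed the filter lie above 0.

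Other lipocalins of the liver did not share the pattern: of 8 tested, 4 were higher (Rbp4, log2 0.53, Apom, log2 0.70, Ambp and C8g) and 2 lower (Orm1, log2 -0.32, and Orm2, log2 -0.50). Hepatocyte markers were higher or without a call (6 and 3 of 9), with a summed level of 119260 to 123170 CPM in WT and 157830 to 187960 in LKO. Markers of Kupffer cells (4 of 5 higher, 73.2 to 76.0 against 99.3 to 117 CPM), stellate cells (4 of 4 higher, 65.4 to 74.3 against 133 to 158), cholangiocytes (2 of 4 higher), endothelial cells (1 of 4 higher) and lymphocytes (1 of 1 tested, Ptprc, higher) were low beside them. All the counts of lipocalins and markers stand beside 23.4% higher and 21.4% lower of all 12220 genes tested. Of the markers listed for salivary and lacrimal gland, which also make these proteins, Amy1 alone was in the table and was lower, at 169 against 102 CPM. Amy1 and Alb were both named above for their high correlation with the summed members within groups (r = 0.986 and 0.989). Whether Amy1 measures gland tissue here was not tested. The part of cell composition in the members' change was not tested, and in these tissue samples fewer cells of a type cannot be told apart from less RNA per cell.

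In Gps2 LKO livers the H3K27ac peaks called among the members were those of Mup21. H3K27ac, a mark of active promoters and enhancers, was tested at 22 of the 27 member peaks, and 3 were lower and 0 higher (8 and 0 at an unadjusted p below 0.05, 3 and 0 by DESeq2) beside 0.212% lower and 1.21% higher of all 47109 peaks tested. The median log2 fold change of the 22 peaks was -0.26 against 0.06 for all peaks, and 21 of 22 were negative. Peak values are given as tags per 10000000, with positions in mm9.

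The Mup21 peak at chr4:61817717-61820908, upstream of the gene, had 181 and 191 in WT and 75.6 and 70.0 in LKO (log2 -1.36, SE 0.11, edgeR adjusted p = 0.0064). The peak over its start site, chr4:61807714-61813780, had 359 and 396 in WT and 198 and 191 in LKO (log2 -0.96, adjusted p = 0.0082). Another Mup21 peak, chr4:61833853-61838777, had 310 and 314 against 179 and 174 (log2 -0.83, adjusted p = 0.0105). In each of these the WT libraries lay close together and well above both LKO libraries. Without either WT library the count of member peaks called fell to 0, as the calls over all peaks did (0 and 2 lower), while these 3 log2 fold changes stayed between -0.80 and -1.41.

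No H3K27ac peak of the other members was called. The broad Mup3 peak, chr4:61740933-61753000, had 1216 and 1225 in WT and 1126 and 1175 in LKO (log2 -0.08, adjusted p = 0.694). The Mup7 start-site peak, chr4:60081317-60085315, had 73.1 and 51.1 against 53.0 and 54.3 (log2 -0.20, adjusted p = 0.713), although Mup7 RNA was at 13.4% of WT. The Mup20 start-site peak, chr4:61714419-61715480, had 14.8 and 12.9 against 15.8 and 11.9, with overlapping groups. Summed over peaks, the mean went from 876 to 443 for Mup21, 1599 to 1443 for Mup3, 1956 to 1729 for Mup20, 251 to 208 for Mup7 and 41.8 to 25.1 for Mup1. H3K4me3, a mark of active promoters, was testable at 4 member peaks, and edgeR called 0 higher and 0 lower (1 and 1 at an unadjusted p below 0.05, 0 by DESeq2), beside 0.798% higher and 0.118% lower of all peaks. The Mup3 peak had 477 and 468 in WT and 576 and 551 in LKO (log2 0.25, adjusted p = 0.160), and the Mup7 start-site peak had 19.0 and 17.6 against 9.47 and 9.58 (log2 -0.94, adjusted p = 0.3355). No Mup21 peak was tested, since none overlapped the listed H3K4me3 peaks. The Mup21 start-site peak, chr4:61807714-61813780, had 23.8 and 24.8 in WT and 9.99 and 11.7 in LKO. Among the Mup21 peaks, only chr4:61794103-61794603 had overlapping groups.

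**Figure D4:**
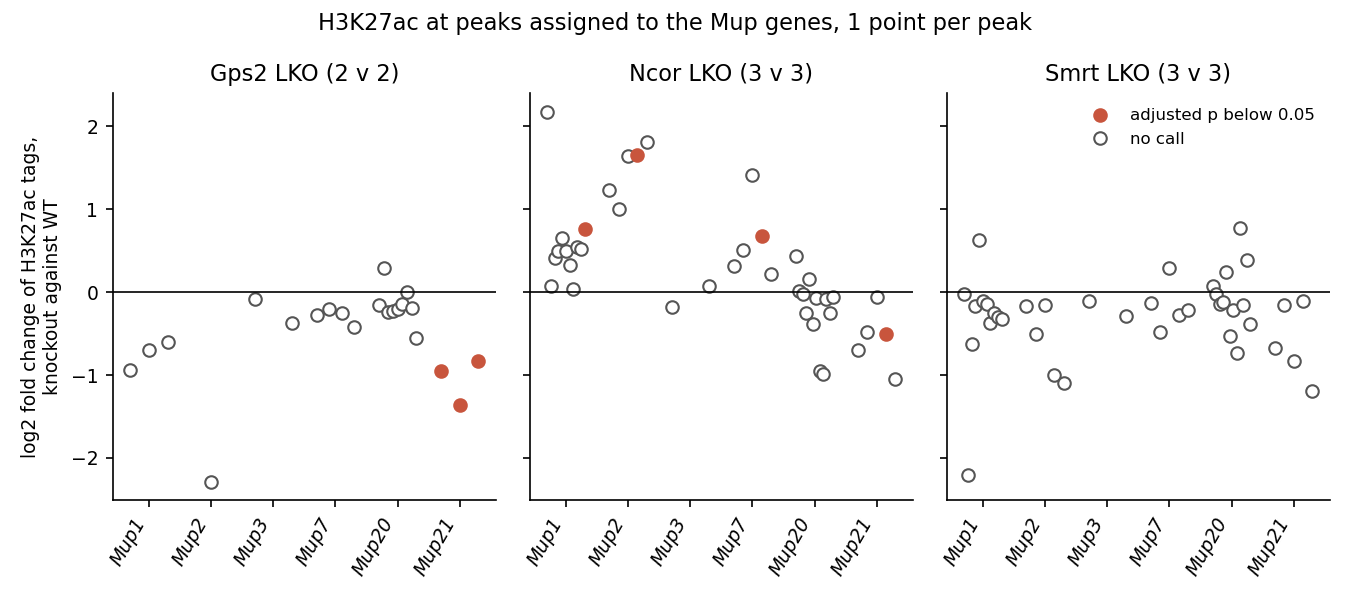
H3K27ac at the member peaks in the GPS2, NCOR and SMRT lines: log2 fold change of knockout over WT for each tested peak, by gene, with called peaks marked. In Gps2 LKO the 3 called peaks are those of Mup21 (log2 -0.83 to -1.36), in Ncor LKO peaks of Mup1, Mup2 and Mup7 lie above 0 and one of Mup21 below, and in Smrt LKO none was called.

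PolII was measured in 1 library per genotype, and the values have no replicate check. A log2 ratio of -1 or less, with 3 or more tags in a library, was seen at 8 of 24 member peaks and a ratio of 1 or more at 1 peak, beside 5.94% lower and 7.72% higher of all 31434 peaks. All 7 Mup7 peaks were among the lower ones. Summed over them, Mup7 had 308 tags per 10000000 in WT (95% Poisson interval 277 to 342) and 49.6 in LKO (37.8 to 64.0), while Mup3 had 232 (205 to 261) and 241 (214 to 271) and Mup20 175 (152 to 201) and 182 (159 to 208). The Mup7 start-site peak held 37 tags in WT and 16 in LKO, and a peak downstream of the gene, 4565 bases from the start site, 73 and 7. Mup21 had 17 and 22 tags over 2 peaks, and the 1 peak that rose, with 4 and 10 tags, was one of them. The intervals cover counting error alone.

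The GPS2 antibody itself was read at the members in 1 WT and 1 Gps2 LKO library. In WT the 29 member peaks held GPS2 tags at Mup20 (207 tags over 14 peaks), Mup3 (103 over 4), Mup7 (93 over 6), Mup21 (86 over 4) and Mup1 (13 at 1 peak). In LKO the counts were 16, 3, 0, 4 and 0. Per 10000000 tags Mup7 was at least 29.6-fold lower against a floor of 3 tags, Mup21 20.5-fold and Mup20 12.3-fold lower. Log2 ratios of -1 or less were found at 28 of 29 member peaks and ratios of 1 or more at 0, beside 99.2% and 0.102% of all 49018 peaks. Over the whole table, the tags in peaks went from 7.07% to 0.310% of each library. Scaled to tags in peaks in place of all tags, 25 of 29 member peaks were higher and 0 lower, so their direction rests on the scaling to all tags. Peaks in general turned with this scaling, at a median log2 ratio of 1.41 for all peaks and 1.91 for the member peaks. In WT, GPS2 tags were present at Mup20, whose RNA was not called, as well as at Mup21 and Mup7.

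PPARα tags lay close to the start sites of 5 members, Mup2 excepted. In Gps2 LKO livers the 50 member peaks summed to 1265 to 1516 tags per 10000000, against 806 to 909 in WT. The WT libraries of this comparison differed from each other by no more than sampling noise and were counted as 1 sample. On that basis edgeR called 0 member peaks higher and 0 lower (18 and 0 at an unadjusted p below 0.05, 0 by DESeq2), beside 2.49% and 0.0234% of all 102519 peaks. Counted as 3 samples, 22 of 50 were higher, beside 36.6% of all peaks. The median log2 fold change was 0.68 at the members and 0.61 at all peaks, and with TMM scaling, which sets the bulk of peaks as equal, the median of all peaks moved to 0.02 and 0 member peaks were called. The strongest member peak, chr4:61687392-61687635 of Mup20, had 64.5, 82.6 and 62.0 in WT and 105, 117 and 108 in LKO (log2 0.64, adjusted p = 0.165). At the start site of Mup3, chr4:61748340-61748634, the values were 17.7, 21.9 and 19.2 against 28.7, 46.4 and 35.2 (log2 0.90, adjusted p = 0.160). The 3 WT values at each peak were counted as 1 sample, so their distance from the LKO values is not a separation of replicates. The start-site peak of Mup1 had 12.7, 15.2 and 11.3 in WT and 18.4, 26.5 and 15.8 in LKO, with the same limit. At the Mup7 start site the values were 24.0, 25.6 and 29.3 against 21.8, 42.6 and 46.9, with LKO replicate 1 below all WT libraries. At the start sites of Mup20 (8.86, 12.3 and 7.89 against 13.8, 19.9 and 11.7) and Mup21 (10.1, 14.2 and 16.9 against 18.4, 29.4 and 15.8) the groups overlapped.

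In PPARa_KO livers, where the receptor is absent, the PPARα tags at the 32 member peaks summed to 142 and 154 per 10000000 in WT and to 39.6 and 40.5 in KO. Of the 32 peaks, 11 were lower and 0 higher (16 and 0 at an unadjusted p below 0.05), beside 27.6% and 0.0174% of all 40241 peaks. The medians were -2.27 at the members and -1.68 at all peaks. The Mup21 peak at chr4:61835587 had 7.79 and 9.94 in WT and 0.687 and 0 in KO (log2 -4.33, adjusted p = 0.0045). The peaks of Mup20 that had most tags went from 12.0 and 9.94 to between 1.37 and 2.20, and Mup3 at chr4:61749075-61749288 from 14.2 and 9.94 to 5.49 and 3.66 (log2 -1.38, adjusted p = 0.039). With TMM scaling 0 of 32 were called and the Mup3 value turned to 0.09, since this scaling moved the median of all peaks to -0.22. DESeq2 also called 0. The start-site peaks at Mup1 and Mup20, for which no RefSeq promoter was at hand, fell to 0 or 1 tag per KO library, and their sequences (mm9, minus strand) are given with ATCAAT in capitals.
Mup1, chr4:60515036-60515184: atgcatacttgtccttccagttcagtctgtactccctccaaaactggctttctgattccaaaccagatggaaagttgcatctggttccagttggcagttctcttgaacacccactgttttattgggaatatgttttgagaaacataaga
Mup20, chr4:61715284-61715462: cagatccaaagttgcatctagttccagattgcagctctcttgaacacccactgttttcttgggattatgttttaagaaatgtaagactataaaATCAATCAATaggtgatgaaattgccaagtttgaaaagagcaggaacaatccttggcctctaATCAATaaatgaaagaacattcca
The Mup1 peak had 4.25 and 6.12 in WT and 0.687 and 0 in KO (log2 -3.56, adjusted p = 0.020). The Mup20 peak had 6.37 and 7.65 in WT and 0 and 0 in KO. The letters ATCAAT stand in the Mup20 peak, as in the promoters of Mup2, Mup3, Mup7 and Mup21, and not in the Mup1 window on either strand, which covers only these 149 bases and says nothing of those beside them.

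**Figure D5:**
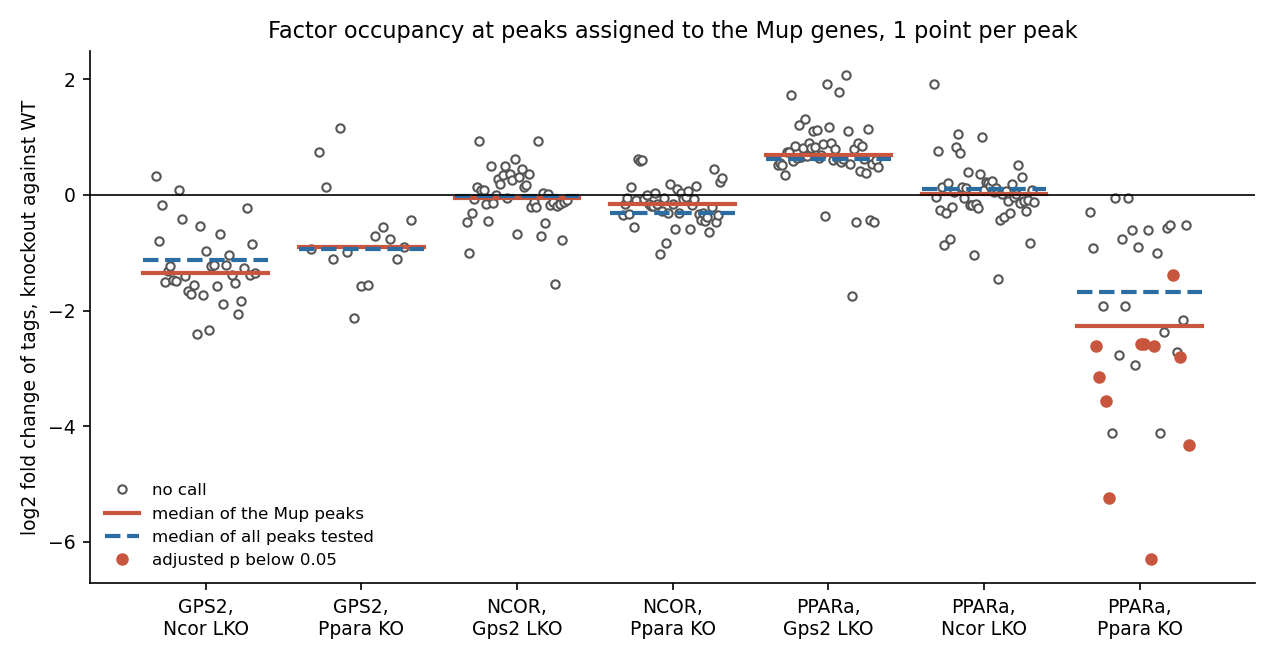
Log2 fold change of tags (vertical axis, knockout against WT) at each tested member peak in 7 factor ChIP comparisons, with called peaks filled, the median of the member peaks as a red line and that of all peaks tested as a dashed blue line. The member and the overall medians lie close together in each comparison (0.68 and 0.61 for PPARα in Gps2 LKO), apart most for PPARα in PPARa_KO (-2.27 and -1.68), where the 11 filled points lie. Points whose KO libraries hold 0 tags depend on the prior count of the fit and are no estimate of size.

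NCOR tags at the members overlapped between WT and Gps2 LKO livers. The 43 member peaks summed to 774, 704 and 543 in WT and to 620, 908 and 415 in LKO, and edgeR called 0 higher and 0 lower (0 and 1 at an unadjusted p below 0.05, 0 by DESeq2), beside 0.0124% and 0.00495% of all peaks. The medians were -0.06 at the members and -0.03 at all peaks. The peak at the Mup7 start site, chr4:60083268-60083607, was the 1 with an unadjusted p below 0.05, at 37.5, 35.6 and 22.6 in WT and 12.7, 21.6 and 13.6 in LKO (log2 -1.0, edgeR adjusted p = 1.0, groups not overlapping). With TMM scaling 1 member peak was called lower. In PPARa_KO livers the 47 member peaks summed to 1252 ± 122 in WT and 1123 ± 169 in KO (SD, n = 3 each), with 0 calls in either direction (0 and 3 at an unadjusted p below 0.05, 0 by DESeq2) beside 0.136% higher and 2.51% lower of all peaks. The medians were -0.15 and -0.32, and TMM scaling moved the latter to -0.02. Mup3 peaks summed to 219 to 285 in WT and 154 to 196 in KO, and Mup1 peaks to 44.7 to 52.0 and 59.2 to 71.9, both without overlap and in opposite directions. None of these peaks was called, and how often the sums of other genes separate like this was not tested. The peak with most tags, chr4:61719028-61719185 of Mup20, had 74.8, 88.6 and 98.6 in WT and 83.4, 84.8 and 63.3 in KO.

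For GPS2 in Ncor LKO livers, the WT group included replicate 3, the library with few tags in peaks. The 35 member peaks summed to 313, 289 and 92.2 in WT and to 89.7, 105 and 79.0 in LKO, so that WT replicate 3 lay within the LKO range and the others far above it. No member peak was called by edgeR (0 higher and 12 lower at an unadjusted p below 0.05, 0 by DESeq2), beside 0.0% higher and 0.0338% lower of all peaks. The medians were -1.34 and -1.12, and TMM scaling moved the latter to -0.04. Without WT replicate 3, 22 of 35 were lower, beside 59.1% of all peaks. The Mup3 start-site peak, chr4:61748529-61748689, had 8.29, 9.98 and 2.68 in WT and 2.96, 1.77 and 0 in LKO (log2 -2.06, adjusted p = 0.0835). In PPARa_KO livers GPS2 at 15 member peaks summed to 140, 96.2 and 213 in WT and to 104, 110 and 51.9 in KO. There were 0 calls by edgeR and by DESeq2 (0 higher and 3 lower at an unadjusted p below 0.05), beside 0.0% higher and 0.273% lower of all peaks, and the medians were -0.91 at the members and -0.93 at all peaks (0.01 for all peaks with TMM scaling). Summed over its peaks, Mup20 had 30.6 to 64.6 in WT and 7.93 to 28.8 in KO, where the median of all peaks was negative too. PPARα in Ncor LKO livers gave 0 calls at 51 member peaks as well (2 higher and 0 lower at an unadjusted p below 0.05, 0 by DESeq2), beside 0.151% and 0.0453%. The medians were 0.01 and 0.10. The Mup20 peak with most tags, chr4:61687432-61687622, had 89.5, 97.2 and 48.5 in WT and 70.2, 67.2 and 105 in LKO. WT replicate 3, which stood apart here too, was the lowest, and the groups overlapped.

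The H3K27ac peaks called in Ncor LKO livers were higher at the near-identical copies Mup1, Mup2 and Mup7 and lower at Mup21. The peaks of Mup1, Mup2 and Mup7 summed to 726 to 960 tags per 10000000 in WT and to 1242 to 1349 in LKO, whereas those of Mup3, Mup20 and Mup21 summed to 6596 to 7272 in WT and to 5902 to 6395 in LKO. The groups did not overlap in either sum, and such separation was not measured for other sets of peaks. The lower sum is not a fall of each gene in it. The Mup20 peak with most tags, chr4:61674840-61691419, had 1757, 1573 and 1846 in WT and 1807, 1557 and 1578 in LKO, with overlap. Of the 40 member peaks, 3 were higher and 1 lower (13 and 6 at an unadjusted p below 0.05), beside 2.32% and 0.801% of all 68817 peaks, and the medians were 0.19 at the members and 0.00 at all peaks. The most certain rise was at Mup7, chr4:60089929-60103819, with 430, 369 and 378 in WT and 644, 589 and 646 in LKO (log2 0.68, SE 0.0998, edgeR adjusted p = 0.0082). Mup1 at chr4:60539231-60541722 went from 36.8, 37.6 and 39.6 to 59.7, 66.9 and 66.6 (log2 0.76, adjusted p = 0.019), and Mup2 at chr4:61095872-61096410 from 6.89, 3.36 and 2.91 to 15.6, 14.2 and 11.3 (log2 1.66, adjusted p = 0.021). In all 3 peaks every LKO library was above every WT library. Mup21 at chr4:61832890-61839486 went the other way, from 625, 563 and 591 to 375, 458 and 423 (log2 -0.50, adjusted p = 0.030), and its summed peaks from 1669 to 1195 on average. Without WT replicate 2 none of the 3 rises was called, without any WT library or LKO replicate 3 the Mup1 peak was not called, and with any WT library or LKO replicate 3 left out the Mup21 peak was not called. At the start sites, Mup7 had 169, 132 and 115 in WT and 171, 201 and 218 in LKO (log2 0.51, adjusted p = 0.127), and the broad Mup3 peak had 2377, 2328 and 2416 against 1988, 2248 and 2066 (log2 -0.18, adjusted p = 0.378).

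In Smrt LKO livers, whose 6 libraries had 0 tags at the Y-linked peaks, H3K27ac at the members gave 0 calls in either direction by edgeR and by DESeq2 (0 higher and 4 lower at an unadjusted p below 0.05), beside 0.0% of all peaks, with medians of -0.19 and 0.01. The Mup7 start-site peak had 25.4, 24.5 and 36.6 in WT and 15.3, 28.8 and 17.3 in LKO, and the groups overlapped. Mup21 at chr4:61832890-61839486 had 222, 281 and 140 against 243, 126 and 228, and the broad Mup3 peak 2320, 2202 and 2075 against 2026, 1951 and 2159, again with overlap. Summed over its peaks, Mup20 had 2547 to 2845 in WT and 2297 to 2386 in LKO, and all members together 5903 to 6521 and 5492 to 5556, both without overlap. None of the peaks in these sums was called, and the sums of other genes were not compared. Peak by peak, the difference between the Ncor and the Smrt effect was called at 0 of 40 member peaks (7 higher and 1 lower at an unadjusted p below 0.05), beside 0.33% and 0.0959% of all 68818 peaks. It came closest for the Mup2 peak, with 2.66 on the log2 scale (adjusted p = 0.0565), and for Mup1 with 1.08 (adjusted p = 0.0708). Since the lines also differ in their sex-linked signal, the knocked-out corepressor and the sex-linked signal cannot be told apart in this difference.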

How the data were processed

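RNA-seq counts per gene and ChIP-seq tag counts per peak were used as the authors deposited them. Per the study's methods, RNA was polyA-selected and reads were aligned to mm9 and counted, whereas the labels also name GRCm38 and mm10. Positions in the RNA table are those of GRCm38 and those of the peaks are mm9. How reads with several matches were counted is not given in the sources used here. Columns of the authors' own fold changes and p-values, and input libraries, were not used. Deposited peak lists served to keep GPS2-line histone peaks that overlapped a listed peak by at least 1 base in at least 2 of 4 lists.

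Counts were tested with edgeR 4.0.16 (quasi-likelihood test, R 4.3.3) over each whole table, with Benjamini-Hochberg adjustment and a threshold of 0.05. RNA counts were scaled by TMM after filterByExpr, and ChIP counts by the total tags of each library, with at least 1 tag in a peak. WT PPARα libraries of the GPS2 line, which differed by no more than sampling noise, were counted as 1 sample. With 1 library per genotype, a log2 ratio of at least 1 in size with 3 tags or more was used, with Poisson intervals at 95% confidence. DESeq2 1.42.0, other scalings and filters, the replicate block and leaving out each library were tried as alternatives. The scripts were tested on simulated data.

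The members and gene lists were chosen with earlier results of these data known. For some genes of the lists no values are given. Peaks were named by a rule: those with most tags, those nearest a start site within 1000 bases, and those past the threshold.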

Additional observations from a re-analysis of the deposited data

Results flagged for a closer look

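In 3 of the 12 groups of 4 RNA-seq libraries (6 members, WT and LKO), a single library lay far from the others, judged by its gap to the nearest library over the range of the group. Chance flags about 1 in 20 such groups. WT replicate 1 was the lowest for Mup1, with 82 counts against 111 to 128 and a ratio of 0.838. LKO replicate 2 was the highest for Mup1, with 3 counts against 0 in the other libraries (ratio 1.0), a difference of very few reads. LKO replicate 2 was also the lowest for Mup20, at 3258 CPM against 4361 to 4508 (ratio 0.882).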

How the results depend on the processing

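The falls of Mup1, Mup2, Mup7, Mup21 and Mup3 RNA kept their direction and call under the 14 settings tried, at log2 fold changes of -9.70 to -6.51, -2.46 to -2.15, -3.22 to -2.88, -4.64 to -4.26 and -0.60 to -0.27. Mup20 RNA turned from 0.05 to -0.21 (adjusted p = 0.0036) with a gene length trend, and leaving out single libraries gave 0 to 1 members called higher. The replicate numbers were not taken to pair the libraries, since in no comparison with 3 or more pairs was every correlation of same-numbered libraries over 0.1. They ran from 0.0360 to 0.161 for RNA and from -0.0252 to 0.332 for NCOR in the PPARa line, and stood at 0.171 for H3K27ac and 0.199 for H3K4me3 in the GPS2 line, with 2 pairs each, and the fits with a replicate block are given for completeness. With the replicate block, lower H3K27ac peaks in Gps2 LKO went from 3 to 5, while the share of all peaks tested went from 0.212% to 1.00%. The lower H3K27ac peak in Ncor LKO went from 1 to 0 and lower GPS2 peaks in Ncor LKO from 0 to 4. Higher PPARα peaks in Gps2 LKO went from 0 to 25 and lower PPARα peaks in PPARa_KO from 11 to 0. The last count was also 0 with TMM scaling, 0 with DESeq2 and 4 with filterByExpr, and the Mup3 peak at -1.38 turned to 0.094 with TMM and 0.22 with DESeq2. DESeq2 called 2 lower H3K27ac peaks in Ncor LKO, filterByExpr gave 1 lower GPS2 peak in Ncor LKO and TMM 1 lower NCOR peak in Gps2 LKO. With the WT libraries counted as 3, 22 PPARα peaks were higher in Gps2 LKO, beside 36.6% of all peaks. Scaled to tags in peaks, GPS2 in Gps2 LKO gave 25 higher and 0 lower peaks, where the median log2 ratio of all peaks was 1.41. Leaving out single libraries gave 0 to 4 lower H3K27ac peaks in Gps2 LKO, 0 to 4 higher and 0 to 2 lower in Ncor LKO, 0 to 22 lower GPS2 peaks in Ncor LKO, 0 to 2 higher PPARα peaks in Gps2 LKO, 0 to 6 lower in PPARa_KO and 0 to 2 peaks higher in the difference between the Ncor and Smrt effects. Peak counts given here without a share of all peaks describe the settings and are no result about the members. The cause of the changes between settings was not tested. PPARα peaks of the PPARa line rest on few tags, and reads shared between copies limit Mup1, Mup2 and Mup7 at any depth.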

Other observations

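H3K27ac at the members differed between the WT groups of the NCOR and SMRT lines, which share 1 peak table. The Mup7 start-site peak had 115 to 169 tags per 10000000 in the NCOR-line WT libraries and 24.5 to 36.6 in the SMRT-line WT libraries. Mup21 peaks summed to 1669 ± 128 and 605 ± 157 (SD, n = 3 each), whereas Mup3 peaks summed to 2387 ± 45.9 and 2206 ± 125. The SMRT-line libraries had 0 tags at the Y-linked peaks and 249 to 289 at Xist, so line and sex-linked signal cannot be told apart. This difference between WT groups was not tested.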
